A study of Mus musculus with 4 samples.

Results

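The genes described here are 29 genes of cholesterol and fatty acid synthesis, matched by symbol to the gene names of a whole-genome expression array, by a rule that uses no measured value. All 29 were found among 26680 gene names, of which 19171 were tested. They comprise 15 enzymes of the sterol pathway, 10 enzymes that make, elongate or desaturate fatty acids, and 4 genes that control the pathways or carry cholesterol. The study set miR-155 knockout CD4+ T cells (2 arrays) against wild-type CD4+ T cells (2 arrays), and its title concerns the response of Th17 cells to IL-23 and their effector genes. Cells of both genotypes were cultured with antibodies to CD3e and CD28 plus TGF-beta and IL-6, conditions that direct T helper 17 differentiation, and were then sorted as CD4+ cells carrying a red fluorescent reporter of IL-17F. The labels state no strain, age or sex. Sorting selected for reporter signal, so the arrays describe reporter-positive cells of either genotype and not the whole cultures. The design calls the arrays of a genotype biological replicates, but the labels name neither animal nor culture, so the p-values rest on the spread between samples that may in part be technical.

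Cholesterol synthesis begins with acetyl-CoA, passes through mevalonate to farnesyl diphosphate, and continues from squalene through a series of sterol intermediates. The transcription factor SREBP-2 (gene Srebf2) is known to drive nearly all of these enzymes when membrane sterol is low, while SREBP-1 (Srebf1) chiefly drives fatty acid synthesis. Both precursors are held in the endoplasmic reticulum by SCAP and the INSIG proteins when sterol is abundant. Activated T cells are known to switch both pathways on to build membrane as they grow.

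The RNA that distinguishes the genotypes and the upstream DNA of 4 of the genes are shown to give the sequence context of the comparison. The mature miR-155 strand (mouse GRCm38.p6, chromosome 16, 84714143 to 84714165, plus strand, RefSeq) is printed with its seed, bases 2 to 8, in capitals.
mmu-miR-155-5p: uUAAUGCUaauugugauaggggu
Promoter sequences of RefSeq on the same build were at hand for 22 of the 29 genes. The 250 bases before the transcription start are shown for the 3 genes that hold the core letters of the sterol response element (CACNCCAC, where SREBPs bind) and for Lss, so that both genes that passed an unadjusted p of 0.05 are included. Capitals mark every match, on either strand, to CACNCCAC, to the CCAAT box bound by NF-Y, to the GC box GGGCGG bound by Sp1 and to the E box CACGTG.
Hmgcs1, chr13:119690101-119690350, plus strand: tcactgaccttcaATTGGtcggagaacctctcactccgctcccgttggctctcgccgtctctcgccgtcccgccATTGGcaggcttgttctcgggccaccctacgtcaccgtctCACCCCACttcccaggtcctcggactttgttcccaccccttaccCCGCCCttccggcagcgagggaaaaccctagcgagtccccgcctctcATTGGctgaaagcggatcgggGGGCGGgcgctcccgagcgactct
Acat2, chr17:12960726-12960975, minus strand: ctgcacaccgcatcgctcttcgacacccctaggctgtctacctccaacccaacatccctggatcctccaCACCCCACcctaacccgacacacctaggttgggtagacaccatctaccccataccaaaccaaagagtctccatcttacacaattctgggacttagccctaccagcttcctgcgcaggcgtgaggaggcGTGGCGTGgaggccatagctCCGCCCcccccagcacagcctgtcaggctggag
Insig1, chr5:28071162-28071411, plus strand: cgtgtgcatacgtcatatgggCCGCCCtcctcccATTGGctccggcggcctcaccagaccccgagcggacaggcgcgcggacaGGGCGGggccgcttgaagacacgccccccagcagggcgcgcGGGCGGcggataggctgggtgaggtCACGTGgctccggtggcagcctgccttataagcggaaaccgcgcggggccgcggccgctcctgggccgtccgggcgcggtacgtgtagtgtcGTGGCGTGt
Lss, chr10:76531355-76531604, plus strand: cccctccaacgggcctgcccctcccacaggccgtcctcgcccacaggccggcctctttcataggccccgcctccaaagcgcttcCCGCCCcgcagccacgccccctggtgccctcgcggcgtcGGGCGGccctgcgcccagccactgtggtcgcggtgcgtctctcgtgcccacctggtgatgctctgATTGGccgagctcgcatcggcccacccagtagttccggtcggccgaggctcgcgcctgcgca

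CCAAT and GGGCGG were counted more often upstream of sterol genes than of fatty acid genes, a count with no test. CCAAT lay within the 250 bases of 11 of the 12 sterol enzyme genes with a promoter and of 3 of the 7 fatty acid genes, against 33.8% of all 32851 promoter windows in the table and 37.5% of all genes. GGGCGG lay in 11 of the 12 and 3 of the 7, against 32.7% of windows. CACNCCAC was found in Hmgcs1, Acat2 and Insig1, against 5.29% of windows, and CACGTG in Dhcr7, Sc5d, Insig1 and Elovl5, against 6.02%. Genes with several annotated starts had several windows, and a match describes letters in a window, not a bound site.

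The arrays were alike in the share of spots detected, and knockout array 1 had a dim area. Spots well above background made up 63.5% to 69.8% of an array, and 0 were saturated. Replicate spike-in probes had a median coefficient of variation of 16.5% on knockout array 1, against 4.20% to 4.55% on the other 3 arrays. Knockout arrays lay in slide row 2 and wild-type arrays in slide row 1, so that genotype cannot be told apart from slide row. T cell markers Cd4, Cd3d, Cd3e, Cd3g, Cd5 and Cd28 were well above background on all arrays. Of the 6, 0 had an unadjusted p under 0.05 in limma, against 11.3% of all genes tested. The 4 Th17 markers Il17f, Il17a, Il23r and Ccr6 were all lower in the knockout at that p, against 4.12% of all genes tested. Their summed level was 4.09 and 4.45 times the array's 75th percentile on the knockout arrays, against 19.2 and 20.5 on the wild-type arrays. In bulk samples, fewer cells of a type and less RNA per cell cannot be told apart. Of 22 markers of other blood cells 16 were tested. At that p, 3 (Cd8a, Eomes and Cd79b) were higher and 0 lower, against 7.22% and 4.12% of all genes tested. By any amount, 12 of the 16 were higher in the knockout, against 10049 of all 19171 genes tested. The summed level of the 16, most of it from Klrd1 and Itgam, was 31.4 and 34.3 on the knockout arrays, against 33.4 and 36.5 on the wild-type arrays. For the 4 B cell markers among them it was 3.45 and 3.79 in the knockout, against 2.09 and 1.43 in wild type, and the part of such cells in the results that follow was not tested. Ncr1, Klrb1c, Ms4a1, Hbb-b1, S100a8 and S100a9 did not pass the background filter. The miR-155 transcript itself was not analysed here, so the genotype labels had no direct check.

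All 29 genes were expressed, in the sense that the brightest probe of each was well above background on all 4 arrays. Levels are log2 signals relative to the array's 75th percentile, each gene by its brightest probe, and differences are log2 knockout minus wild type. Most of the 29 genes had nearly the same signal in both genotypes. limma with Benjamini-Hochberg adjustment over the 19171 genes tested called 0 of the 29 at 0.05, with adjusted p-values from 0.354 to 0.987, and 0% of all genes, the smallest adjusted p over all genes being 0.255. At an unadjusted p under 0.05 there were 2 higher genes, Acat2 and Lss, and 0 lower ones, 6.9% of the 29, against 11.3% of all genes tested (7.22% higher and 4.12% lower). Knockout and wild-type arrays were apart, without overlap, for 12 of the 29, or 41.4%, with both knockout arrays above in 5 and below in 7, against 47.8% of all genes (25.4% above and 22.4% below). The median absolute difference was 0.061 over the 29 genes, against 0.19 over all genes tested. The 95% interval of the difference lay within 1 log2 unit of 0, a 2-fold change, for 25 of the 29 (86.2%), against 77.2% of all genes. The exceptions were Acat2, Pmvk, Srebf1 and Scd2.

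**Figure D1:**
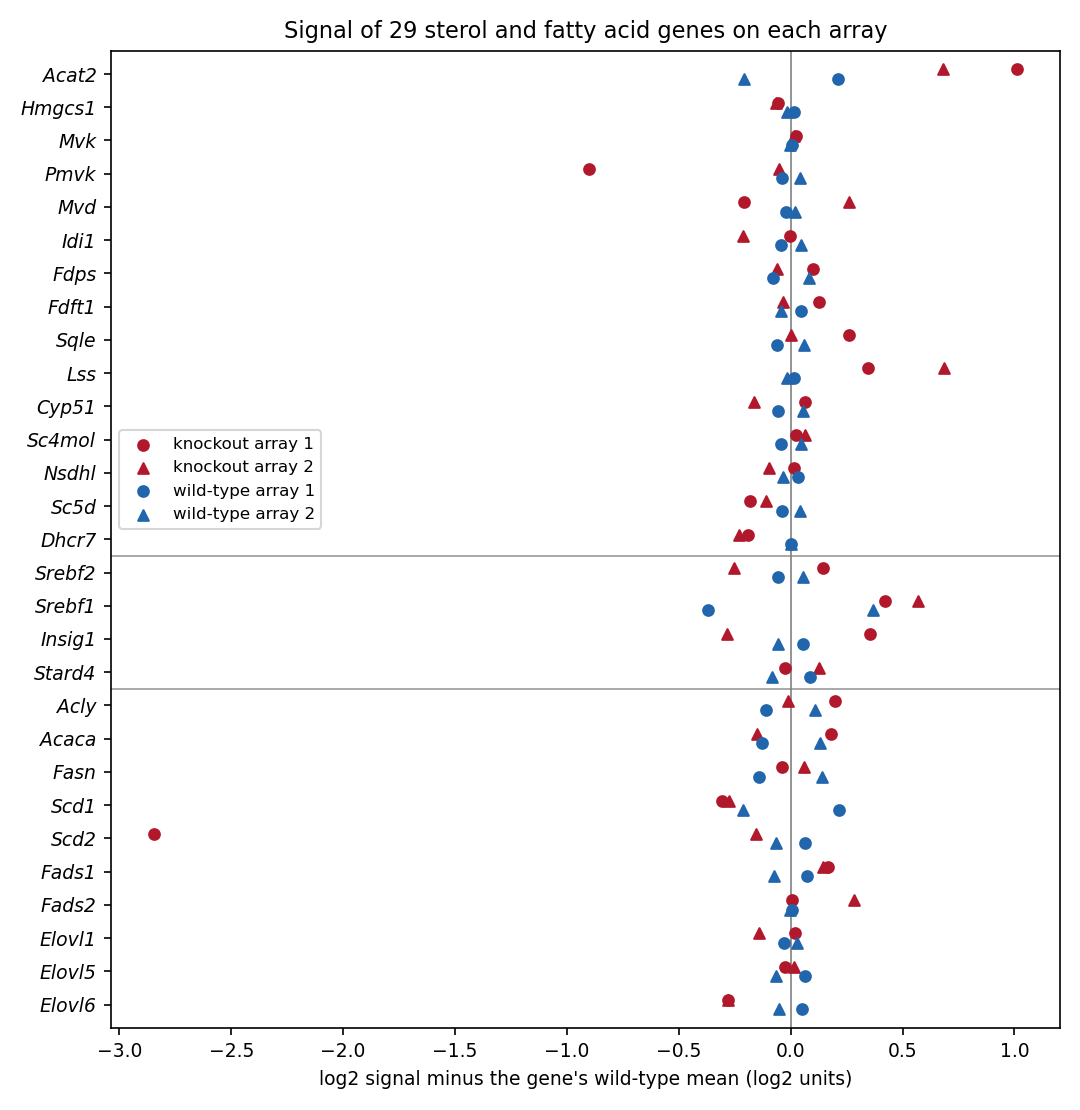
Log2 signal of each of the 29 genes on each array (horizontal axis, log2 units, relative to the gene's own wild-type mean), with knockout arrays in red above wild-type arrays in blue and lines between the sterol, control and fatty acid genes. Most points lie close to 0, Acat2 and Lss have both knockout arrays to the right, and knockout array 1 stands alone at the left for Scd2 and Pmvk.

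The first steps of the sterol pathway, from acetyl-CoA to farnesyl diphosphate, were represented by 7 genes, of which only Acat2 had an unadjusted p under 0.05. Acat2 encodes the cytosolic thiolase that joins acetyl-CoA units into acetoacetyl-CoA. It had levels of 1.01 and 0.68 on the knockout arrays, against 0.21 and -0.21 on the wild-type arrays. Both knockout arrays were higher than both wild-type arrays. The difference was 0.84 ± 0.22 (SE), a 1.79-fold higher signal, with a 95% interval of 0.24 to 1.44. limma gave an unadjusted p of 0.0174 and an adjusted p of 0.354. The 92 probes within 6 rows and columns that were above background on all arrays were brighter on knockout array 1. Their median was 0.19 above the mean of the other 3 arrays, beside 0.79 for Acat2 itself. With signals divided by the scanner software's fitted surface, the Acat2 difference was 0.74. The Acat2 probe lay on mm9 chromosome 17 at 13136482 to 13136541. Acat3, a paralog of Acat2 whose probe lay at 13118170 to 13118229, had levels of 3.08 and 3.38 in the knockout, against 2.58 and 2.16 in wild type, and a difference of 0.86 ± 0.21 (SE). Both paralogs were higher on both knockout arrays, and binding of one transcript to the other's probe was not tested. Without wild-type array 2 the Acat2 difference was 0.63, with an unadjusted p of 0.0636 from limma, and without knockout array 1 it was 0.67, with an unadjusted p of 0.0710.

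Hmgcs1, which condenses acetoacetyl-CoA into HMG-CoA and is among the best known SREBP-2 targets, had levels of 4.84 and 4.83 in the knockout, against 4.91 and 4.88 in wild type. Both knockout arrays lay just below both wild-type arrays, and the difference was -0.06 ± 0.11 (SE), with a 95% interval of -0.37 to 0.25. Its sign turned, to 0.23, when signals were divided by the scanner software's fitted surface, which was 0.658 at that spot on knockout array 1, while the 52 neighbouring probes there had a median of -0.03 relative to the other 3 arrays. A far dimmer Hmgcs1 probe, designed on a cDNA clone and above background on 3 of the arrays, differed by -0.45. Mvk, the kinase that phosphorylates mevalonate, had 3.81 and 3.8 in the knockout, against 3.79 and 3.78 in wild type, and a difference of 0.02 ± 0.11 (SE), and its other probe differed by 0.19. The Hmgcs1 and Mvk intervals lie within a 2-fold change. Mvd, the decarboxylase that forms isopentenyl diphosphate, had 2.44 and 2.91 in the knockout, against 2.63 and 2.67 in wild type. Its knockout arrays lay on either side of the wild-type arrays. Idi1, the isomerase of isopentenyl diphosphate, differed by -0.11 ± 0.14 (SE). Fdps, which makes farnesyl diphosphate, differed by 0.02 ± 0.14 (SE), and for both genes the groups overlapped.

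Pmvk, the kinase that follows Mvk, gave different answers from different probes. Its brightest probe had 4.47 and 5.32 in the knockout, against 5.33 and 5.41 in wild type, a difference of -0.48 ± 0.32 (SE) carried by knockout array 1. Its other probe had 4.27 and 4.36 in the knockout, against 4.25 and 4.39 in wild type, and differed by -0.0081. The brightest probe sat near the right edge of the array. The 83 probes within 6 rows and columns of it that were above background on all arrays were lower on knockout array 1 than on the mean of the other 3 by a median of -0.75, beside -0.89 for Pmvk itself. Without knockout array 1 the difference of Pmvk was -0.05.

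The later steps, from squalene to cholesterol, were represented by 8 genes, of which only Lss had an unadjusted p under 0.05. Lss encodes lanosterol synthase, which closes the ring system of the first sterol. It had levels of 2.45 and 2.79 on the knockout arrays, against 2.12 and 2.09 on the wild-type arrays. Both knockout arrays were higher, with more spread between them than between the wild-type arrays. The difference was 0.52 ± 0.16 (SE), a 1.43-fold higher signal, with a 95% interval of 0.07 to 0.97. limma gave an unadjusted p of 0.0328 and an adjusted p of 0.405. The probe lay on mm9 chromosome 10 at 76015992 to 76016051. The call was lost when either wild-type array or knockout array 2 was left out, with unadjusted p-values of 0.0968, 0.111 and 0.0935 from limma and differences of 0.53, 0.50 and 0.35. It was also lost with median scaling and in the authors' matrix (0.154), with division by the surface, which was 1.18 at that spot on knockout array 1 (0.188), with the replicate block (0.0570) and with no filter (0.0513).

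The enzymes on either side of Lss had smaller differences. Fdft1, squalene synthase, had 3.29 and 3.13 in the knockout, against 3.21 and 3.12 in wild type. Sqle, the squalene epoxidase that is a rate-limiting step, had 4.76 and 4.50 in the knockout, against 4.44 and 4.56 in wild type. For both genes the groups overlapped, with differences of 0.05 ± 0.13 and 0.13 ± 0.15 (SE). Cyp51, the lanosterol demethylase, differed by -0.04 ± 0.14 (SE). Sc4mol (Msmo1 in RefSeq) and Nsdhl, which remove the methyl groups at carbon 4 of the sterol, differed by 0.04 ± 0.12 and -0.04 ± 0.12 (SE). The last enzymes of the chain had knockout arrays below both wild-type arrays. Sc5d, a desaturase, had 2.97 and 3.04 in the knockout, against 3.11 and 3.19 in wild type, a difference of -0.14 ± 0.12 (SE). Dhcr7, the reductase that completes cholesterol, had 0.68 and 0.64 in the knockout, against 0.87 and 0.87 in wild type. Its difference was -0.21 ± 0.12 (SE), with an unadjusted p of 0.141 from limma and a 95% interval of -0.52 to 0.11. With median scaling and in the authors' matrix the Dhcr7 difference was -0.37, with unadjusted p-values of 0.0464 and 0.0465 from limma.

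**Figure D2:**
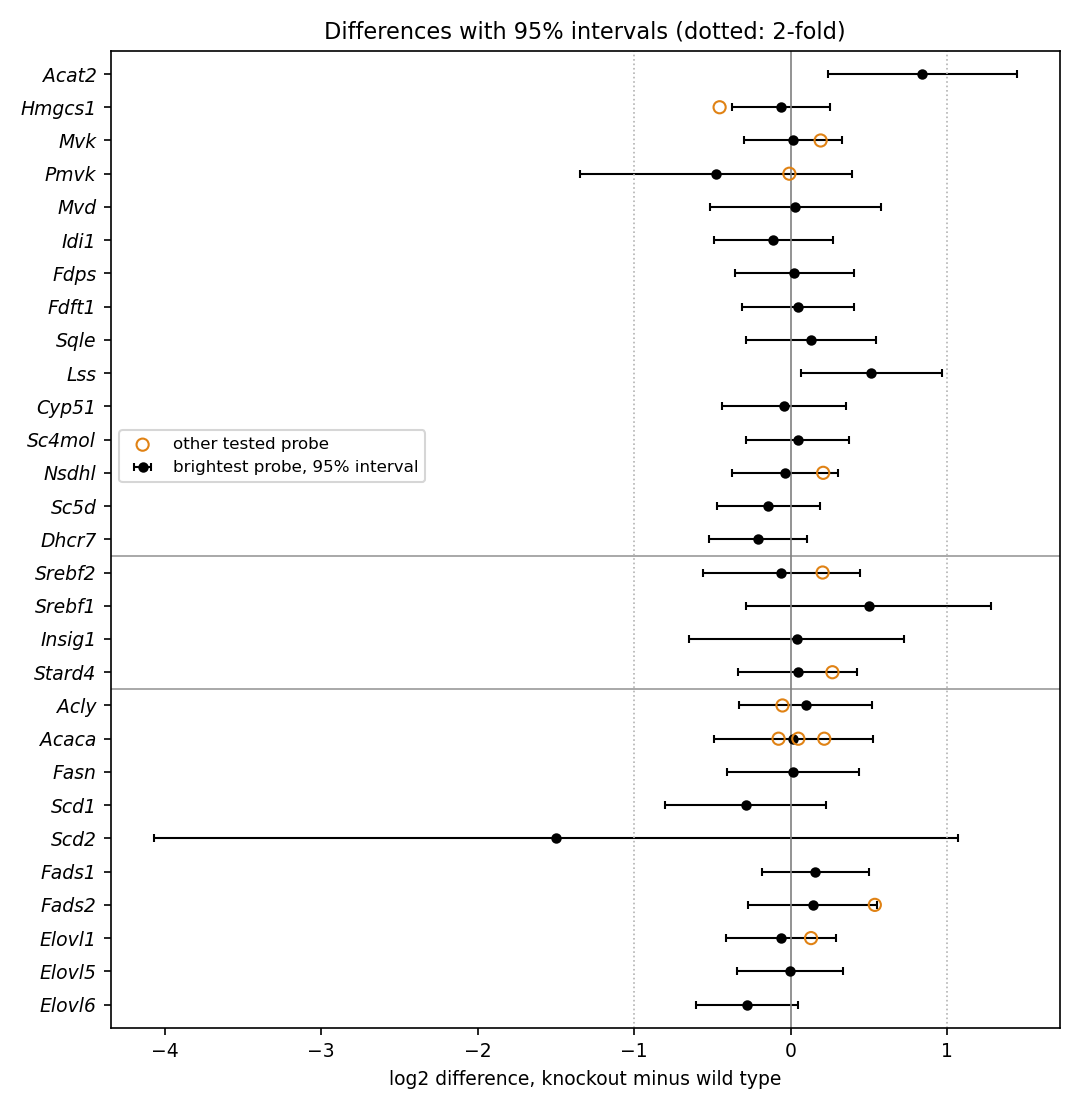
Log2 difference, knockout minus wild type, of each gene by its brightest probe (black, bars are 95% intervals from limma) and by its other tested probes (orange circles), with dotted lines at a 2-fold change. Intervals of 25 genes stay between the dotted lines, and the interval of Scd2 is by far the widest.

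Genes that control the pathways or move cholesterol showed no difference at an unadjusted p of 0.05. Srebf2, the gene of SREBP-2, had 2.09 and 1.69 in the knockout, against 1.89 and 2.0 in wild type. Insig1, an SREBP target whose product retains the SREBP precursor, had 1.0 and 0.36 in the knockout, against 0.70 and 0.59 in wild type. In both genes the knockout arrays lay on either side of the wild-type arrays, with differences of -0.06 ± 0.18 and 0.04 ± 0.25 (SE). Stard4, a cytosolic sterol carrier, differed by 0.05 ± 0.14 (SE), also with overlap, and its other probe by 0.27. Srebf1, the gene of SREBP-1, had -0.63 and -0.48 in the knockout, against -1.42 and -0.68 in wild type. Both knockout arrays were higher, but the wild-type arrays lay further from each other than the nearest arrays of the groups did. Its difference was 0.50 ± 0.29 (SE), with an unadjusted p of 0.154 from limma. The wild-type arrays decided its size, since the difference was 0.13 without wild-type array 1 and 0.87 without wild-type array 2.

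Fatty acid synthesis proper was nearly level. Acly, which makes cytosolic acetyl-CoA from citrate and so feeds sterol synthesis too, had 5.25 and 5.04 in the knockout, against 4.94 and 5.16 in wild type. Acaca, acetyl-CoA carboxylase, had 3.63 and 3.30 in the knockout, against 3.32 and 3.58 in wild type. Fasn, fatty acid synthase, had -0.53 and -0.43 in the knockout, against -0.63 and -0.35 in wild type. The groups overlapped for all 3 genes, with differences of 0.10 ± 0.16, 0.02 ± 0.19 and 0.01 ± 0.15 (SE). The 4 tested probes of Acaca ranged from -0.08 to 0.21.

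By their brightest probes all 3 elongases had negative differences, and none passed an unadjusted p of 0.05. Elovl6, which extends palmitate to stearate, had 3.27 and 3.27 in the knockout, against 3.60 and 3.50 in wild type. Both knockout arrays lay below, with a difference of -0.28 ± 0.12 (SE) and an unadjusted p of 0.0760 from limma. Elovl1, of very long saturated chains, and Elovl5, of polyunsaturated chains, differed by -0.06 ± 0.13 and -0.01 ± 0.12 (SE), with overlapping groups. The other Elovl1 probe differed by 0.13.

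Desaturases gave the extremes of the fatty acid genes. Scd1 and Scd2 encode stearoyl-CoA desaturases, which make oleate, and their probes lay 88.4 kb apart on mm9 chromosome 19. Scd1 had 1.62 and 1.65 in the knockout, against 2.14 and 1.71 in wild type, a difference of -0.29 ± 0.19 (SE). Scd2 had 4.09 and 6.78 in the knockout, against 7.0 and 6.87 in wild type. Knockout array 1 alone was low, and knockout array 2 lay close to both wild-type arrays. The difference of -1.50 ± 0.94 (SE), with an unadjusted p of 0.183 from limma, was the lowest of the 29, and it was -0.16 without knockout array 1 and -2.84 without knockout array 2.

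The Scd2 spot lay in a corner of the array where knockout array 1 was dim. Its 78 neighbouring probes above background were lower on knockout array 1 than on the mean of the other 3 arrays by a median of -1.72, beside -2.79 for Scd2 itself. The multiplicative surface that the scanner software fitted there was 0.326 on knockout array 1, against 0.851 to 0.956 on the other 3 arrays. The processed signal had been divided by the surface at 0.799% of spots well above background on knockout array 1, against 100% on the others. Divided by that surface, the Scd2 difference was -0.71. Scd2 had no other probe under that name.

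**Figure D3:**
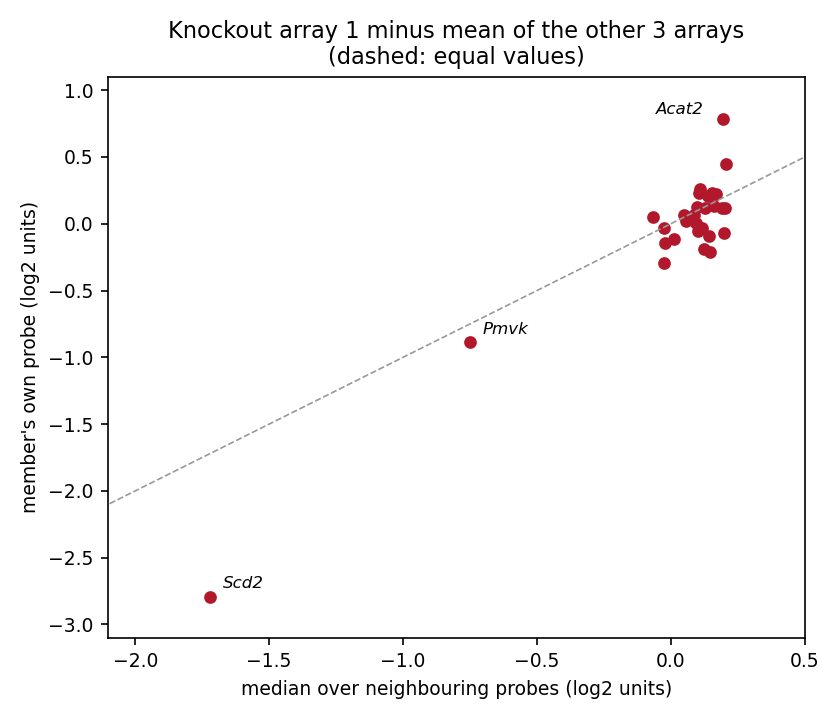
Knockout array 1 minus the mean of the other 3 arrays, for each gene's brightest probe (vertical axis) and for the median of the probes within 6 rows and columns of it (horizontal axis), both in log2 units. Scd2 and Pmvk lie at the lower left, at -1.72 and -0.75 on the horizontal axis, away from the other 27 genes.

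Fads1 and Fads2 encode the desaturases of polyunsaturated fatty acids, with probes 132.8 kb apart on mm9 chromosome 19. Fads1 had 0.91 and 0.89 in the knockout, against 0.82 and 0.67 in wild type, both knockout arrays lying above, with a difference of 0.16 ± 0.12 (SE). The brightest Fads2 probe, designed on a cDNA clone, had -1.13 and -0.85 in the knockout, against -1.13 and -1.14 in wild type, and differed by 0.14 ± 0.15 (SE). Its other probe, designed on the RefSeq transcript, had -1.84 and -1.67 in the knockout, against -2.26 and -2.33 in wild type. That probe differed by 0.54, with an unadjusted p of 0.0281 in a limma fit of all probes. Probes thus disagreed in size for Fads2. Across the 10 genes with several tested probes, 5 had probes of opposite sign (Acaca, Acly, Elovl1, Nsdhl and Srebf2), none more than 0.29 apart.

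Set against each other by their medians, sterol and fatty acid genes differed little. Whether knockout and wild-type arrays overlapped in this contrast depended on Pmvk and Scd2. The median difference was 0.018 over the 15 sterol enzymes, with 8 higher and 7 lower, and 0.0033 over the 10 fatty acid genes, with 5 higher and 5 lower, beside 0.016 over all genes tested. For each gene the deviation from its mean over 4 arrays was taken. The median deviation of the fatty acid genes was -0.032 and -0.022 on the knockout arrays, against -0.0050 and 0.061 on the wild-type arrays. For that list alone the groups did not overlap, the knockout arrays being lower. On each array this median was subtracted from the median deviation of the sterol enzymes. This contrast was 0.069 and -0.016 on the knockout arrays, against -0.0029 and -0.044 on the wild-type arrays. The groups overlapped. Without Pmvk and Scd2 it was 0.065 and 0.011, against -0.012 and -0.050, and the groups no longer overlapped. With means in place of medians the sterol list lay 0.21 above the fatty acid list, a value that Scd2 on knockout array 1 enters in full. No p is given for these list values, since the genes were chosen as a list with results of these data known. The sign of either median depends on scaling, since with each array centred on its median the values were -0.14 for sterol and -0.16 for fatty acid genes, beside -0.14 for all genes.

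**Figure D4:**
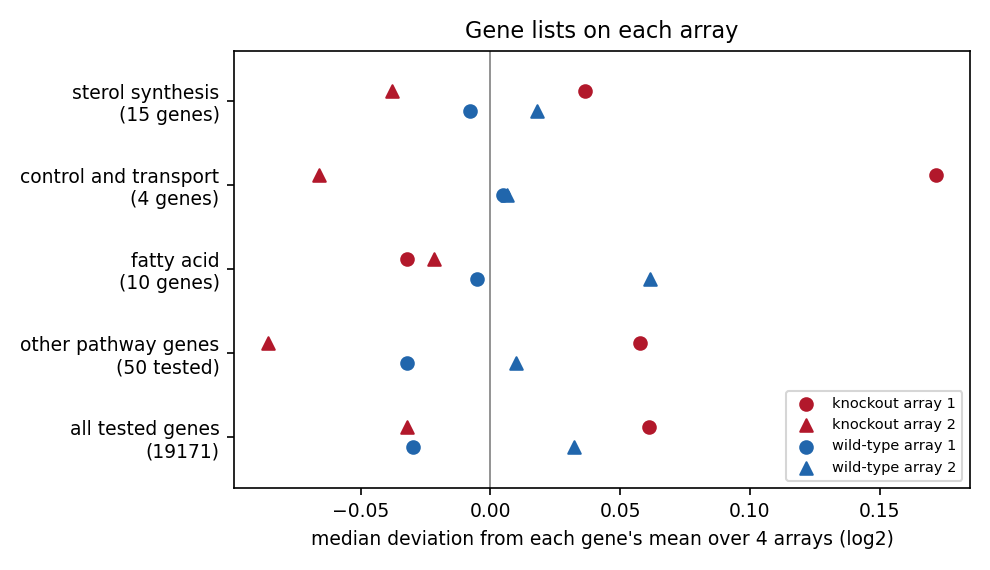
Median deviation of each gene list on each array (horizontal axis, log2 units, from each gene's mean over 4 arrays), knockout arrays in red and wild-type arrays in blue. Sterol and fatty acid lists stay within 0.07 of 0 on every array. Knockout arrays lie on either side of wild-type arrays for the sterol list, and both lie below both wild-type arrays for the fatty acid list.

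Of 55 further genes of sterol and fatty acid metabolism 50 were tested. At an unadjusted p under 0.05 the knockout was higher for 4 and lower for 1, against 7.22% and 4.12% of all genes tested, a share of calls near that of all genes (11.3%), and 0 passed limma's adjusted threshold. Their median difference was 0.0029, with 25 higher and 25 lower. Npc1l1, Thrsp, Elovl2, Elovl3 and Acsl6 did not pass the background filter. Scap, whose product escorts SREBPs out of the endoplasmic reticulum, had 4.06 and 3.95 in the knockout, against 4.44 and 4.63 in wild type. It was the 1 lower gene, with a difference of -0.54 ± 0.14 (SE) and an unadjusted p of 0.0162 from limma.

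The 4 higher genes were Soat2, Lpcat3, Me1 and Lpin1. Soat2, which esterifies cholesterol for storage, had 1.96 and 1.92 in the knockout, against 1.22 and 0.89 in wild type. Its difference was 0.89 ± 0.16 (SE), with limma's unadjusted p of 0.00482 and adjusted p of 0.299. Lpcat3, which places polyunsaturated chains into phospholipids, had 3.60 and 3.65 in the knockout, against 3.04 and 3.11 in wild type, a difference of 0.55 ± 0.12 (SE). Arrays of the same genotype lay close together for Lpcat3. Me1, malic enzyme, which supplies NADPH, had -0.57 and -0.80 in the knockout, against -1.43 and -2.42 in wild type. Its difference of 1.24 ± 0.37 (SE) was 0.75 without wild-type array 2. Lpin1, a phosphatidate phosphatase, had 2.07 and 2.52 in the knockout, against 1.79 and 1.44 in wild type, a difference of 0.68 ± 0.23 (SE). Across the 15 alternatives limma's unadjusted p was under 0.05 in 15 for Soat2, 14 for Lpcat3, 13 for Scap, 11 for Me1 and 8 for Lpin1. When an array was left out, it reached 0.0566 for Lpcat3 (without wild-type array 1) and 0.0902 and 0.0635 for Scap (without wild-type array 2 or knockout array 2). For Me1 it was 0.104 and 0.0680 without knockout array 1 or 2, and 0.0520 with median scaling and in the authors' matrix. For Lpin1 it was 0.147 and 0.130 without wild-type array 2 or knockout array 2, 0.138 with median scaling and in the authors' matrix, 0.0670 with the replicate block, 0.0552 with division by the surface and 0.0535 with no filter.

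**Figure D5:**
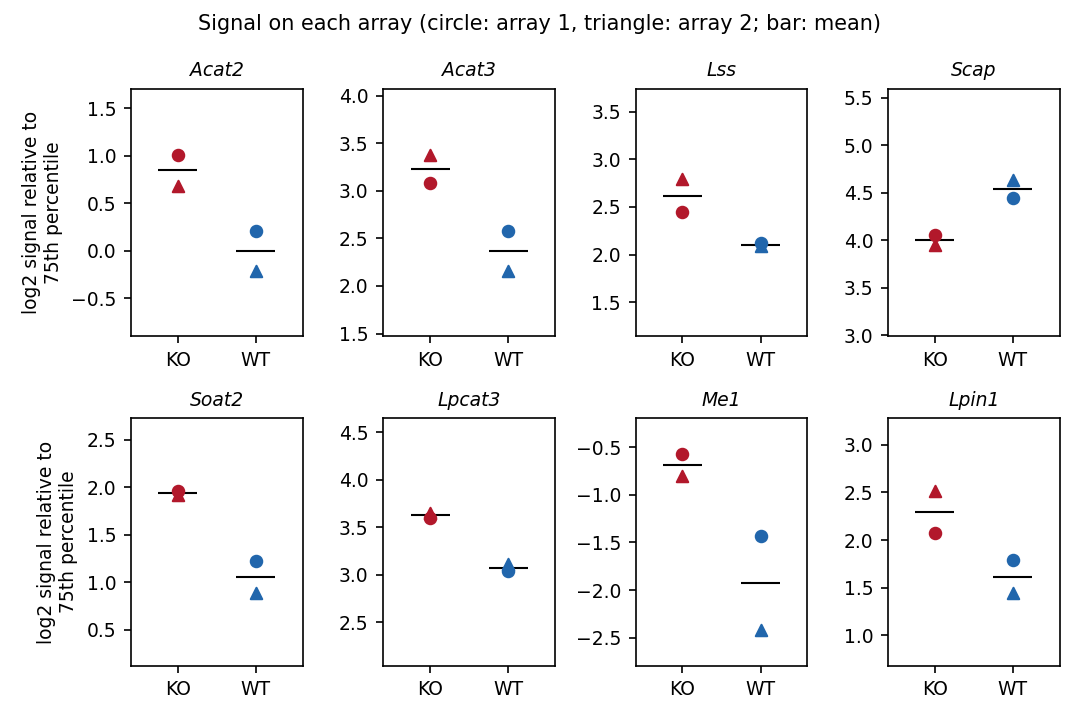
Log2 signal relative to the array's 75th percentile (vertical axes of equal span) on each knockout array (red, left) and wild-type array (blue, right) for Acat2, its paralog Acat3, Lss and 5 further pathway genes, with bars at the means of 2 arrays. Knockout and wild-type points are apart for all 8 genes, Scap being the one with lower knockout points. The genes were chosen by limma's unadjusted p under 0.05 on these same arrays, and Acat3 after its value was seen. The gap thus follows from the choice, and 47.8% of all genes tested are apart.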

How the data were processed

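RNA of 4 sorted T cell samples was hybridised to one-colour Agilent arrays. The authors deposited scanner outputs from version 10.5.1.1 of Agilent Feature Extraction. Per the file headers, the processed signal is an intensity on a linear scale from which background and a spatial trend had been subtracted. The fitted multiplicative surface, a linear ratio, is in the same files, per the file headers. The arrays were not alike in its use. The processed signal had been divided by it at 0.799% of spots well above background on knockout array 1, against 100% on each other array. The authors also deposited a log2 matrix, which differed from the log2 processed signal by 1 constant per array, within 0.001 for at least 99.4% of probes, and was used as an alternative. Control spots and outlier flags were left out, spots averaged per probe, and log2 signals shifted by each array's 75th percentile. Probes were named through RefSeq (GRCm38.p6) by accession, symbol or synonym. Positions of probes are those of the files (mm9), and exon annotation on mm9 was not used here. A probe was tested if both knockout or both wild-type arrays had it well above background, and the brightest probe stood for its gene. limma 3.58.1 in R 4.3.3 (lmFit, eBayes) compared knockout with wild type over 19171 genes, with Benjamini-Hochberg adjustment, after a test on simulated data. The arrays shared 1 slide and 1 scan, which leaves no slide block to fit. With 2 against 2 arrays, the smallest two-sided p of an exact permutation test is 0.333. With 2 arrays a group, the number of arrays limits the precision. Named were all 29 genes, further listed pathway genes at an unadjusted p under 0.05, and markers; Acat3 was added after its value was seen. Some listed genes are not reported here and were left out of the list counts. The genes, lists and tests were chosen with earlier results of these data known. Alternatives were other scaling, background correction, filters, probe choice, variance prior, division by the surface, a replicate block and leaving out each array.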

Additional observations from a re-analysis of the deposited data

How the results depend on the processing

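Limits come from 2 arrays a genotype and from knockout array 1, which had a dim corner and was processed unlike the others. Over the whole of that array, the signal had been divided by the fitted surface at 0.799% of spots well above background, against 100% on each other array. Across 15 alternatives (the one without the corner blocks was chosen after seeing the data), Acat2 kept its sign, with differences of 0.63 to 1.05, unadjusted p under 0.05 in 13 and adjusted p of 0.160 to 0.543. Lss kept its sign at 0.35 to 0.69, with that p in 7, and adjusted p of 0.215 to 0.785. Elovl6 lay at -0.44 to -0.23, with that p in 5. Of the 29 genes 19 took the opposite sign in at least 1 alternative, none of them with an unadjusted p under 0.05 as reported or in that alternative, and 13 did so with median scaling. The count of all genes at an unadjusted p under 0.05 was 4259 with normexp background correction, and 1430 to 2199 when 1 array was left out. The count at adjusted p under 0.05 was 0 to 27, the 27 without wild-type array 1. The count of the 29 at an unadjusted p under 0.05 was 1 with no filter and 1 with the replicate block. It was 3 with median scaling, in the authors' matrix, with normexp and with a variance prior that follows intensity. With median scaling and in the authors' matrix, Dhcr7 passed as a gene lower in the knockout. No label pairs the numbers, and deviations of same-numbered arrays correlated at -0.0016 over tested genes. The sterol median was -0.14 with median scaling and in the authors' matrix, whose arrays share 1 median, and -0.050 to 0.024 with 1 array left out. The fatty acid median was -0.16 in both of these, -0.068 with normexp, -0.069 with division by the surface, and -0.083 to 0.029 with 1 array left out. The sterol minus fatty acid value was 0.081 with division by the surface, 0.21 with means, and -0.017 to 0.081 with 1 array left out. The cause was not tested. Median scaling moved the share of higher genes among those at that p to 25.0%, against 63.7% as reported, normexp to 72.8% and quantile scaling to 51.6%. The slide as a block was not run, since there was 1 slide.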

Other observations

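Beside Acat2 and Acat3, 11 other genes on mm9 chromosome 17 had a tested probe within 300 kb of the Acat2 probe. Of these, 8 had a positive difference, against 10049 of all 19171 genes tested, and the 11 ranged from -0.45 to 1.15 with a median of 0.24. Tcp1, which encodes a chaperonin subunit and whose probe lay next to that of Acat3 on the side away from Acat2, differed by 0.0064. Mas1 and Unc93a had an unadjusted p under 0.05 in limma, with differences of 0.60 (p of 0.0340) and 1.15 (p of 0.00446), 2 of 11 beside 11.3% of all genes tested. Both had low signal. Mas1 had levels of -3.41 and -3.81 in the knockout, against -4.31 and -4.11 in wild type. Unc93a had -2.38 and -2.63 in the knockout, against -3.44 and -3.86 in wild type. These neighbours were chosen after the values of Acat2 were seen.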
